A study of Mus musculus with 15 samples.

Results

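UCSF033_001297 and UCSF033_001298 are 2 of the 2500 microRNA probes on a one-colour Agilent array, named here by the numbers that the files give. They were chosen by earlier results of these same arrays, in which both were low at 42 h, after rest and after restimulation, so every level and difference from naive cells below is a description and carries no test. No table used here pairs the probe numbers with microRNA names or sequences, so neither the microRNA nor its target sites can be given.

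The cells were CD4 T cells of C57/B6 mice aged 6 to 8 weeks, taken from spleen and lymph nodes with CD4-coated magnetic beads. Naive cells had no treatment. Activated cells were kept on plates coated with antibodies to CD3 and CD28 for 6, 12, 24, 42 or 65 h. The rested cells had 65 h of that stimulation and were then held off it in medium with IL-2 to day 7, and the restimulated cells were rested day 7 cells put back on the same antibodies for 18 h. Each group had 2 arrays apart from the rested cells, with 1, and 50 ng of RNA was used per the series design. The labels name neither the mice nor the cultures behind the arrays of a group, so the spread between arrays may be technical, and they describe the source of every sample, naive cells included, as activated. No panel of cell type markers could be checked without probe names.

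MicroRNAs are short RNAs that guide Argonaute proteins to partly matching messenger RNAs, which are then translated less and degraded. The antibodies stand in for antigen: CD3 carries the signal of the T cell receptor and CD28 that of costimulation, and naive T cells given both leave quiescence, grow and divide. IL-2 is the cytokine that keeps such blasts alive and dividing once the antibodies are withdrawn. T cells are known to replace part of their microRNA content as they become activated.

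Of the 15 arrays, 14 had 640 to 950 detected probes, a median spot brightness of 21 to 23 scanner units and at most 0.112% of their spots marked as uneven. The first 42 h array had 2146 detected probes, a median of 466 and 49.9% of its spots marked. The arrays lay on 2 slides, each with 1 array of every group except that the rested cells were on slide 1 only.

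Both probes were bright in naive cells. After restimulation they were faint on slide 2 and at background on slide 1. UCSF033_001297 had 7 spots on each array, spread over rows 85 to 186 of 192, and UCSF033_001298 had 6, spread over rows 2 to 162. The background-subtracted signal of UCSF033_001297, before any scaling between arrays, averaged 3509 and 3108 scanner units on the slide 1 and slide 2 arrays of naive cells. At 6 h it was 3324 and 2239, at 12 h 1636 and 1478, and at 24 h 1258 and 510, in the same order. All 8 of these values were far above the dimmest signal that counted as detected, which lay between 5.72 and 10.5 units on the 14 arrays.

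At 42 h the slide 1 array had only 78.1 units for UCSF033_001297. At 65 h the slide 1 and slide 2 arrays had 22.4 and 99.2 units, and the single day 7 array, on slide 1, had 20.7. After restimulation the slide 2 array had 17.1 units and the slide 1 array 1.64, with 0 of its 7 spots well above background. The probe was thus close to the limit of detection on slide 1 by 65 h, and not detected there after restimulation.

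UCSF033_001298 followed the same course at lower values. It gave 2542 and 2722 units in naive cells on slides 1 and 2, 2213 and 2069 at 6 h, 999 and 1323 at 12 h, and 812 and 435 at 24 h. The slide 1 array at 42 h had 46.8 units, those at 65 h 14.3 on slide 1 and 84.6 on slide 2, and day 7 had 12.8. After restimulation it had 13.6 units on slide 2 and 1.52 on slide 1, where 0 of 6 spots were well above background. On 13 arrays, leaving out the first 42 h array and that restimulated array, all kept spots of both probes were well above background.

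The spots of a probe agreed closely within an array. The coefficient of variation over spots had a median of 3.19% for UCSF033_001297 and 2.39% for UCSF033_001298 across 13 arrays. Up to 24 h it did not exceed 4.39% and 3.07%, and it reached 11.1% and 13.8% on the first restimulated array, where the signal was faint. Up to 24 h, the spots of an array thus differed much less than the 2 arrays of a group did after scaling, as given below.

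The first 42 h array did not measure either probe in a usable way. It kept 1 of 7 spots of UCSF033_001297, at 468 units, and 1 of 6 of UCSF033_001298, at 198 units. The neighbours in numbering UCSF033_001295, UCSF033_001296, UCSF033_001299 and UCSF033_001300, detected on 0 of the other 14 arrays, had single spots of 71.6 to 474 units there. Both kept spots lay within that range, so the 42 h level is taken below from the second 42 h array unless stated.

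For comparison between arrays the signal was divided by the 75th percentile of each array, taken over 558 probes detected on all 15 arrays, and put on a log2 scale with a floor at 0.607% of that percentile. On this scale UCSF033_001297 stood at 0.89 and 0.15 in naive cells (slides 1 and 2), 0.97 and -0.30 at 6 h, 0.71 and -0.79 at 12 h, and 0.42 and -1.32 at 24 h. It was at -2.79 at 42 h (slide 1), at -4.77 and -3.74 at 65 h, and at -5.39 at day 7 (slide 1). In restimulated cells it stood at -7.36 on slide 1, which is the floor, and at -6.80 on slide 2. The order of the group means was naive, 6, 12, 24, 42, 65 h, day 7 and restimulation, from high to low. Each group up to 24 h overlapped the next in that order, and no neighbouring groups overlapped from 24 h onwards. The 42 h and day 7 groups were 1 array each here, so their lack of overlap says little.

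On the same scale UCSF033_001298 stood at 0.43 and -0.04 in naive cells, 0.38 and -0.41 at 6 h, 0.001 and -0.95 at 12 h, and -0.21 and -1.55 at 24 h. It was at -3.52 at 42 h, at -5.42 and -3.97 at 65 h, at -6.08 at day 7, and at the floor of -7.36 on slide 1 and -7.14 on slide 2 after restimulation. The group means had the same order as for the other probe, and again the groups overlapped only up to 24 h on this scale. Before scaling, the day 7 signal of 12.8 units lay between the restimulated signals of 13.6 and 1.52 units.

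On the scaled values the group means at 24 h were 50.9% of naive for UCSF033_001297 and 47.4% for UCSF033_001298. They fell more steeply after 24 h. Without scaling the 24 h differences from naive were larger, at -2.04 log2 for UCSF033_001297 and -2.15 for UCSF033_001298. The mean of UCSF033_001297 lay 0.52 ± 0.52 in naive cells (SD, n = 2) on the log2 scale, and its difference from that was -0.19 at 6 h, -0.56 at 12 h and -0.98 at 24 h, each with an SE of 0.75 from limma's fit of all 15 arrays. The difference was -3.35 (SE 0.95) at 42 h without the first 42 h array and -3.08 (SE 0.75) with it. With that array kept, the 42 h difference depended on the scaling: it was -5.90 with the percentile over all probes and -5.31 with quantile normalization. It was -4.78 (SE 0.75) at 65 h, which leaves 3.65% of the naive level, -5.91 (SE 0.92, 1 array against 2) at day 7, which leaves 1.66%, and -7.61 (SE 0.75) after restimulation.

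For UCSF033_001298, at 0.20 ± 0.33 in naive cells (SD, n = 2), the log2 differences were -0.21, -0.67 and -1.08 at 6, 12 and 24 h (SE 0.63 each). At 42 h the difference was -3.76 (SE 0.79) without the first 42 h array and -3.74 (SE 0.63) with it, where it became -6.53 with the percentile over all probes and -5.43 with quantile normalization. At 65 h it was -4.89 (SE 0.63), leaving 3.37% of naive, at day 7 -6.28 (SE 0.77), leaving 1.29%, and after restimulation -7.45 (SE 0.63). The differences up to 24 h were smaller than 2 SE for both probes. With any 1 array left out, the 6 h difference of UCSF033_001297 ran from -0.82 to 0.45 and that at 12 h from -1.31 to 0.19. For UCSF033_001298 it ran from -0.61 to 0.19 at 6 h and from -1.14 to -0.19 at 12 h. At 24 h the range was from -1.84 to -0.09 for UCSF033_001297 and from -1.75 to -0.39 for UCSF033_001298, the ends being the values without the first and without the second 24 h array. Leaving out 1 array unbalances the slides, so these ranges also hold the gap between the 2 arrays of a group. Against the naive array of the same slide, UCSF033_001297 differed at 6 h by 0.08 on slide 1 and -0.45 on slide 2. At 12 h it differed by -0.18 and -0.94. UCSF033_001298 differed by -0.04 and -0.37 at 6 h and by -0.43 and -0.91 at 12 h. The direction at 6 h thus differed between slides for UCSF033_001297. The size at restimulation depends on the floor, since 1 of the 2 arrays had no signal above background. RNA from fewer cells that hold a microRNA and less of it per cell cannot be told apart in such bulk samples.

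By group mean, these drops were larger than those of most probes up to 24 h, and among the largest at 65 h and day 7. With a drop of at least 1 log2 (2-fold) in the group mean as the mark, 0 of the 2 probes reached it at 6 h, where 1.43% of 911 tested probes did, and 0 of 2 at 12 h, against 4.5%. At 24 h UCSF033_001298 reached it at -1.08 and UCSF033_001297 lay at -0.98, against 10.3% of probes. Leaving out the second 24 h array took UCSF033_001298 back above the mark, and UCSF033_001297 passed it in the authors' value table (-1.26), with the percentile over all probes (-1.15) and without scaling. At 42 h both reached it, as did 9.44% of probes with the first 42 h array and 18.25% without it. Both also reached it at 65 h (18.7% of probes), day 7 (17.5%) and after restimulation (19.2%). Since the probes were chosen for these drops, nothing is read from that count, and the ranks given next are likewise only a description.

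By size of the drop from naive cells, UCSF033_001297 ranked 215th of 911 at 6 h, 173rd at 12 h and 102nd at 24 h, and UCSF033_001298 ranked 191st, 116th and 70th. At 65 h they ranked 5th and 4th, at day 7 the 2nd and 1st, and after restimulation the 2nd and 3rd, though the last ranks rest on means in which 1 of 2 arrays is the floor value. At 42 h, where the first 42 h array raised the median of all tested probes to 1.17 log2 above naive, they ranked 4th and 1st of 911, and 16th and 4th of 882 without that array. The median tested probe lay at 0.49 log2 above naive at 65 h, 0.23 at day 7 and 0.39 after restimulation, so both probes moved further from the typical probe than from their own naive level. The 5th percentile of all 911 differences was -1.29 at 24 h, -2.32 at 65 h, -1.99 at day 7 and -2.22 after restimulation: both probes lay above it at 24 h and below it at the later times.

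The arrays of a time differed in how much of the probes was left. Relative to the naive array of the same slide, UCSF033_001297 kept 106% of its level at 6 h, 88.2% at 12 h and 71.9% at 24 h on slide 1, and 73.2%, 52.2% and 36.0% on slide 2. Slide 1 then dropped to 7.80% at 42 h and 1.97% at 65 h, while slide 2 still held 6.75% at 65 h. On these scaled values, the array with more of the probe left was that of slide 1 up to 24 h and that of slide 2 at 65 h. Before scaling, the slides were nearly alike at 12 h. The signal went from 3509 units in naive cells to 1636 on slide 1 and from 3108 to 1478 on slide 2.

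On the scaled values, UCSF033_001298 changed sides in the same way. Before scaling, slide 2 kept more of it at 12 h, going from 2722 to 1323 units against 2542 to 999 on slide 1. The scaled values of UCSF033_001298 follow. This probe kept 97.0%, 74.3% and 64.1% at 6, 12 and 24 h on slide 1 against 77.3%, 53.3% and 35.1% on slide 2. At 65 h it kept 1.73% on slide 1 and 6.57% on slide 2. Of the steps between consecutive groups the largest step on slide 1 lay between 24 and 42 h, with a log2 difference of -3.20 for UCSF033_001297 and -3.31 for UCSF033_001298.

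On the scaled values, the order within pairs followed the titles and not the slides. Leaving out the 42 h pair, the array titled as the replicate was the lower in 6 of 6 pairs for each probe, by 0.74 to 1.74 log2 for UCSF033_001297 and 0.47 to 1.46 for UCSF033_001298 in the 5 pairs other than restimulation. In the restimulated pair the lower array was at the floor, so its gaps of 0.56 and 0.23 are set by the floor. The slide 1 array was the higher in 4 of these pairs and the lower in the other 2, at 65 h and after restimulation. With 1 array per time on a slide, and no usable 42 h array on slide 2, a difference in timing between slides cannot be read from these values.

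Most of the fall lay before the rest. Against the mean of both 65 h arrays the day 7 level of UCSF033_001297 differed by -1.14 log2 (SE 0.92) and that of UCSF033_001298 by -1.39 (SE 0.77), both smaller than 2 SE. By the mark of 1 log2 both probes were lower, against 12.4% of 911 probes, and by size of the drop they ranked 77th and 47th. Neither reached the mark in the authors' value table (-0.66 and -0.74) or with normexp (-0.48 and -0.47). UCSF033_001297 also did not with quantile normalization (-0.93). Within slide 1, the only slide with a day 7 array, the differences were -0.62 and -0.66, and with only the slide 2 array at 65 h as the reference they were -1.68 and -2.14.

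The step within slide 1 was smaller without the scaling. The unscaled signal went from 22.4 to 20.7 units for UCSF033_001297 and from 14.3 to 12.8 for UCSF033_001298, differences of -0.12 and -0.16 log2. In the authors' value table they were -0.02 for each. By 65 h on slide 1 these probes were at 1.97% and 1.73% of naive, and at day 7 at 1.28% and 1.1%. The working name of the pair, lost through rest, therefore holds for their low level at day 7, while most of the loss was already there at 65 h.

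Restimulation for 18 h brought neither probe back. On slide 1 both fell from a detected signal at day 7 to no spot above background. Set against the dimmest detected probe of that restimulated array (8.14 units), UCSF033_001297 was at least 119-fold lower than in naive cells of that slide and at least 1.53-fold lower than at day 7. UCSF033_001298 was at least 86.5-fold lower than in naive cells, and no bound against day 7 can be given for it. Its missing signal on that array thus shows no fall from day 7. On slide 2, where both were above background, they stood at 0.806% and 0.730% of naive.

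The group difference between restimulated and rested cells was -1.69 log2 (SE 0.92) for UCSF033_001297 and -1.17 (SE 0.77) for UCSF033_001298, both smaller than 2 SE. By these means both lay at least 1 log2 lower, as did 6.15% of 911 probes, but the means hold 1 array at the floor. UCSF033_001298 did not reach the mark with the higher floor (-0.72), without the second restimulated array (-0.99) or with quantile normalization (-0.9982). In the authors' value table neither did, at -0.85 for UCSF033_001297 and -0.54 for UCSF033_001298, and without scaling or with normexp neither did. Before scaling, the slide 2 restimulated array had 17.1 and 13.6 units, close to the 20.7 and 12.8 units of the day 7 array on slide 1. That restimulated array was among the brighter ones, with a 75th percentile of 1908 units against 867 at day 7.

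The authors' value table gave the same order of groups. It holds log2 values whose column medians lay between 4.38 and 4.41, with scale and centring unstated. UCSF033_001297 had 11.38 and 10.82 there in naive cells on slides 1 and 2, 11.36 and 10.38 at 6 h, 11.30 and 9.67 at 12 h, 10.51 and 9.17 at 24 h, 5.57 and 6.86 at 65 h, 5.56 at day 7, and 4.50 and 4.92 after restimulation. UCSF033_001298 had 10.99 and 10.63 in naive cells, 10.96 and 10.28 at 6 h, 10.52 and 9.55 at 12 h, 10.05 and 8.91 at 24 h, 5.23 and 6.68 at 65 h, 5.21 at day 7, and 4.53 and 4.80 after restimulation. Restimulated values were thus close to the median of all probes in that table.

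In the value table the first 42 h column had 8.86 for UCSF033_001297 and 8.55 for UCSF033_001298, and the second had 7.69 and 7.00. The column of the first array correlated with its scanner file at a Spearman rho of only 0.459 across 2191 probes, where the others reached at least 0.999. With that column counted as given, the array titled as the replicate was the lower in 7 of 7 pairs for both probes. Log2 differences from naive in the table were -4.89 and -4.86 at 65 h, -5.54 and -5.60 at day 7, and -6.39 and -6.15 after restimulation, for UCSF033_001297 and UCSF033_001298.

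Both probes moved as one through the series. Over 14 arrays, without the first 42 h array, their log2 levels correlated at r = 0.996, and over all 15 at 0.993. Probes with consecutive numbers were often alike on these arrays: 554 other pairs of tested probes with consecutive numbers had a median r of 0.86 (quartiles 0.40 and 0.97), and 45 of them lay above this pair. Both probes were chosen for being low at the same times on these arrays, so a high r between them follows from the choice. Nothing is read from its place among the other pairs. These correlations share the arrays, slides and scaling and are descriptive.

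Their changes from naive were also nearly equal in size. On slide 1 the change of UCSF033_001298 minus that of UCSF033_001297 ran from -0.27 to -0.12 log2 over 6 arrays above the floor, all set against the same naive array, so that array alone can give them 1 sign. On slide 2, likewise against 1 naive array, it ran from -0.14 to 0.08 log2 over 5 arrays. The SE of a group difference does not measure the spread of such gaps, since both probes were read on the same arrays.

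The probes whose pattern over 14 arrays was most like theirs were UCSF033_000781 and UCSF033_000782, each with r = 0.96 against the mean of the 2 centred profiles. Among 880 other tested probes the median r was -0.32, and 9 had r over 0.9. UCSF033_000781 lay at log2 differences from naive of -0.95 at 24 h, -4.53 at 65 h, -4.60 at day 7 and -7.47 after restimulation. UCSF033_000782 lay at -1.46, -5.45, -4.74 and -7.87. In the value table UCSF033_000782 was also the most alike of the probes (r = 0.965 over 14 columns). The next there was UCSF033_000800 (r = 0.963) and not UCSF033_000781, and 23 of 717 probes had r over 0.9.

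At day 7 the values of one look-alike went the other way. Within slide 1 from 65 h to day 7, scaled without the first 42 h array, UCSF033_000782 was higher by 0.62 log2, and the difference was -0.40 for UCSF033_000781, beside -0.62 for UCSF033_001297 and -0.66 for UCSF033_001298. Each is 1 array against 1, with no replicate of the difference. In the value table the same steps were 1.05, -0.19, -0.02 and -0.02.

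The most opposite patterns were those of UCSF033_000816 and UCSF033_000543, both with r = -0.95. Over 14 columns of the value table the most opposite were instead UCSF033_000470 (r = -0.955) and UCSF033_000542 (r = -0.949). UCSF033_000543 lay 4.30 log2 above naive at 65 h, 6.99 at day 7 and 5.82 after restimulation. UCSF033_000816 was detected on 0 of 8 arrays up to 24 h and on both arrays at 65 h, the day 7 array and both restimulated arrays.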

How the data were processed

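The deposited scanner files hold the intensity of 15665 spots per array, with background and spatial trend subtracted by Agilent's software, Feature Extraction. Its version is 10.1.1.1 in the headers, while the submitters' processing notes give 10.6. RNA was taken with Trizol and labelled with Cy3, per the labels' protocols. The authors' value table holds log2 values of 2191 probes, and the sources used here do not give how it was made. Control spots and spots marked as outliers were left out, 0 spots were saturated, and spots of a probe were averaged. A probe was detected on an array when more than 50% of its kept spots were well above background, and 911 probes, those detected on each array of at least 1 group, were tested. Differences and their SE come from limma 3.58.1 (R 4.3.3), fitted to all 15 arrays with no term besides group. The fit without the first 42 h array was also run on simulated data, for 65 h against naive only. Those data were drawn with the fit's own spread, so the run checks the code and not the SE. Slides were read from the file headers. The number of arrays limits precision, and the SE measures only the spread between arrays.

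The members and the choice of comparisons were made with earlier results of these data known. Named beside the members were the 2 most like and the 2 most opposite probes by Pearson r, and 4 neighbours in numbering. Where the value table gave other most like or most opposite probes, those were named too. Alternatives changed scaling, floor, background correction (normexp, offset 50, on median spot signal), spot averaging, filter, slide and arrays. Lists of named microRNAs and cell type markers were not analysed here, since no table used here names the probes.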

Additional observations from a re-analysis of the deposited data

How the results depend on the processing

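Of 392 alternative values, 375 had the sign of the reported value, which was always negative, and 17 had the opposite sign. Of these, 13 belong to differences and steps up to 24 h whose reported value was itself smaller than the spread between arrays (the pooled SD of the probe), and 4 to larger ones. Apart from those 4, 56 values moved by more than that spread. For 24 h and later against naive, 152 of 152 were negative. Those 4 were the step from 42 to 65 h, which was 0.52 for UCSF033_001297 and 1.04 for UCSF033_001298 with the percentile over all probes, and 0.47 and 0.46 with quantile normalization. Below, values are log2 differences for UCSF033_001297 and then UCSF033_001298. With no scaling they were -6.13 and -6.24 for 65 h against naive, -7.32 and -7.68 for day 7 against naive, and -0.67 and -0.15 for restimulation against day 7. With normexp they were -3.62 and -3.48 at 65 h, -4.10 and -3.95 at day 7 and -4.53 and -4.29 after restimulation, each against naive, and -0.43 and -0.34 for restimulation against day 7. Day 7 against 65 h was -0.47 for UCSF033_001298 with normexp. Restimulation against naive was -6.39 and -6.15 in the authors' value table, and -8.30 for UCSF033_001298 with the percentile over all probes. Within slide 1 the 65 h differences were -5.67 and -5.85, within slide 2 -3.89 and -3.93, and day 7 against 65 h within slide 1 was -0.66 for UCSF033_001298. With 1 array left out, UCSF033_001298 ran from -5.62 to -4.14 at 65 h against naive and from -2.14 to -0.66 for day 7 against 65 h. The cause was not tested. Leaving out the only day 7 array gives no value. The share of probes at least 1 log2 below naive ran from 0.329% (normexp) to 2.19% at 6 h, 0.329% (normexp) to 23.5% at 12 h, 3.07% to 42.4% at 24 h, 3.44% to 57.4% at 42 h, 6.8% to 38.1% at 65 h, 6.36% to 45.0% at day 7 and 7.04% to 35.1% after restimulation. It ran from 3.62% to 14.97% for day 7 against 65 h and from 1.1% to 7.79% for restimulation against day 7. On the arrays with the faintest signal, background limits the values.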
